A study of Mus musculus with 6 samples.

Results

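Interferons are cytokines that cells release on sensing viral or bacterial products. Type I and lambda interferons act through a complex with STAT2 and IRF9 that binds the interferon-stimulated response element (ISRE), and promoters induced by interferon gamma can carry the gamma-activated site (GAS). The induced genes encode antiviral proteins, GTPases that attack the compartments of intracellular pathogens, and proteins that process antigens, and in the gut epithelium many of them are also transcribed without infection. Here 48 interferon-induced genes, chosen by name from a list and not by a threshold on measured values, were followed among 24736 gene symbols in RNA sequencing of mouse intestinal crypts. The choice was made with earlier results of these data known. The 48 genes comprise 4 transcription factors, 29 type I antiviral genes, 9 gamma-induced GTPases, 5 antigen processing genes and 1 chemokine.

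The crypts came from the full length of the gut of 12-week-old male mice, 3 wild-type (WT) and 3 labelled Mtg16 KO, with 1 library per replicate and no treatment other than the knockout. Mtg16 is the older name of Cbfa2t3, which encodes a transcriptional co-repressor that brings chromatin-modifying enzymes to DNA-bound factors. The labels call the knockout CRISPR-induced, while the study's methods describe mutant mice received from another group, and the difference was not resolved. The question put to the data was whether the type I antiviral genes and the genes typical of interferon gamma differ alike between the genotypes.

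Cbfa2t3, on chromosome 8 from 122625136 to 122699332 of GRCm38, was measured in TPM, a transcript abundance corrected for length and scaled to one total in each library. It stood at 3.67, 6.69 and 4.52 in WT and at 4.62, 6.43 and 3.23 where the label was Mtg16 KO. The means were 4.96 ± 1.56 and 4.76 ± 1.60 (SD, n = 3 each), and the groups overlapped, so the level of this transcript does not check the genotype labels. By fold change, 12 of 12 enterocyte markers were lower where the label was Mtg16 KO. All 10 Paneth cell, 8 enteroendocrine and 5 stem cell markers were higher, and none of these markers was called. The paper reports these directions for its Mtg16 mutant, in part from RNA sequencing, where it calls the enterocyte reduction significant. It is the paper that reported the present data, so the match is not an independent check of the genotype labels. Directions below refer to the libraries labelled Mtg16 KO. Epithelial identity was clear in every library: all 8 epithelial markers were detected, led by Krt8, and summed to between 6145 and 9425 TPM. Stromal and endothelial markers were low, with all 10 summing to at most 22.4 TPM. Enterocyte and lymphocyte markers differed between libraries and are given beside the antiviral genes.

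The type I antiviral genes lay mostly lower in Mtg16 KO, whereas the listed gamma-induced GTPases and antigen processing genes were centred near 0. Fold changes are on the log2(TPM + 1) scale, Mtg16 KO over WT, a scale that compresses differences between low values. Of the 48 genes, 43 had a mean TPM of at least 1 and were tested, and Oas2, Rsad2, Ifi44, Iigp1 and Gbp3 lay below that. The log2 fold change was below 0 for 25 of 26 tested type I antiviral genes (median -0.68), for 2 of 7 GTPases (median 0.07) and for 1 of 5 antigen processing genes (median 0.02). Over all 12268 tested genes the share below 0 was 53.6% and the median -0.03. Further gamma induced genes and class I antigen processing genes, given below, lay mostly below 0, with medians of -0.18 and -0.39. Whether the classes differ from each other was not tested. The genes were chosen with earlier results of these data known, so these shares are a description.

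No single member passed the test without a replicate block. With limma and an adjusted p under 0.1 over all tested genes, 0 of 43 members were called, beside 4 of 12268 genes (0.0326%). Under another pseudocount, filter, scaling or moderation and with any 1 library left out, 0 members were called too. With the replicate number as a block, 12 of 43 members (27.9%) were called, all lower in Mtg16 KO, beside 9.79% of all tested genes. The numbers were not taken to pair the samples, for reasons given below, and calls are otherwise from the fit without the block. The 4 genes called in that fit, named after their values were seen, were Klhdc4 and Creld2, lower in Mtg16 KO, and Cirbp and Ces1c, higher. The paper reports far more genes as differentially expressed in its RNA sequencing, for which the submitters' notes name DESeq2. The 4 calls here come from limma on TPM and do not count all changes in the series. At an unadjusted p under 0.05, 13 members were lower in Mtg16 KO, beside 988 of all tested genes (8.05%), and 0 were higher, beside 801 (6.53%). Of those 13, 11 were type I antiviral genes, and the others were Stat2 and Cxcl10. Every Mtg16 KO library lay below every WT library for 8 members, all of them type I antiviral genes, beside 1360 of all tested genes (11.1%). The opposite held for 1 member, Ifit2, beside 1219 (9.94%).

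**Figure D1:**
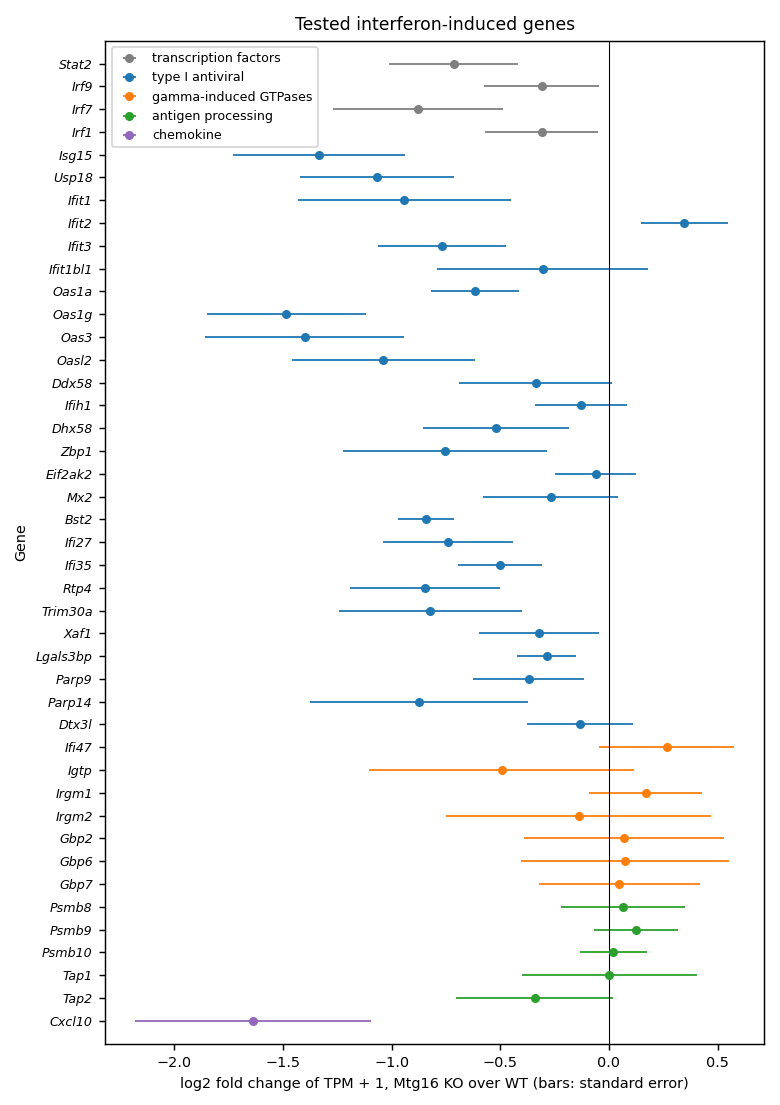
The log2 fold change of TPM + 1, Mtg16 KO over WT, is plotted for each of the 43 tested genes, with bars for the standard error and colours for the class. Ifit2 is the only type I antiviral gene right of 0, while the GTPases and antigen processing genes lie on both sides of it.

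The transcription factors were all on the lower side without being called. Irf1, induced chiefly by interferon gamma and the most abundant of them, had a TPM of 215, 139.8 and 189 in WT and 158, 191 and 98.6 in Mtg16 KO. The groups overlapped, and Irf1 had a log2 fold change of -0.31 (SE 0.26, adjusted p = 0.581). Irf7, which amplifies the type I response, was at 64.9, 30.5 and 30.9 in WT and 33.7, 21.7 and 12.5 in Mtg16 KO, with WT replicate 1 far above the rest. The fold change of Irf7 was -0.88 (SE 0.39, adjusted p = 0.351), while Stat2 and Irf9, partners in the ISRE-binding complex, had values of -0.72 and -0.31. Without Mtg16 KO replicate 3 the fold change was only -0.04 for Irf1 and -0.01 for Irf9.

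ISG15, a ubiquitin-like protein that is conjugated to newly made proteins, and USP18, the protease that removes it and dampens receptor signaling, are among the most sensitive reporters of type I signaling. Isg15 had a TPM of 17.2, 7.88 and 10.9 in WT and 6.73, 4.55 and 1.81 in Mtg16 KO, and the groups did not overlap. Isg15 had a log2 fold change of -1.33 (SE 0.40, adjusted p = 0.265), with a 95% interval from -2.25 to -0.42. Usp18 was at 6.15, 2.07 and 5.01 in WT and 2.16, 0.85 and 1.45 in Mtg16 KO, where WT replicate 2 lay below Mtg16 KO replicate 1. For Usp18 the fold change was -1.07 (SE 0.35, adjusted p = 0.281).

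The IFIT proteins bind foreign RNA ends and block translation, and their genes lie side by side on chromosome 19, the 4 members within 112 kb. Ifit1bl1, the most abundant, was at 33.6, 17.1 and 15.7 TPM in WT and 31.5, 19.3 and 7.39 in Mtg16 KO, so that replicate 1 was high in both groups. Ifit1 was at 16.2, 4.88 and 7.65 in WT and 7.07, 4.82 and 1.63 in Mtg16 KO, overlapping only through WT replicate 2, with a fold change of -0.94 (SE 0.49, adjusted p = 0.407). Ifit2 went the other way at a low level, with 1.60, 1.38 and 1.10 TPM in WT and 2.05, 1.92 and 2.00 in Mtg16 KO. The groups did not overlap, and for Ifit2 the fold change was 0.35 (SE 0.20, adjusted p = 0.437). Ifit3 lay lower in every Mtg16 KO library (-0.77), and Ifit1bl1 had a value of -0.30. The IFIT genes resemble each other in sequence, so reads may have been split between them.

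The OAS enzymes make the oligoadenylates that activate RNase L, which cleaves viral RNA. Oas1g had a TPM of 11.0, 9.43 and 7.72 in WT and 5.24, 2.79 and 1.10 in Mtg16 KO, with each Mtg16 KO library below each WT library. Its fold change of -1.49 (SE 0.37, adjusted p = 0.246) was the lowest of the type I antiviral genes. Oas1a, its close paralog, was at 25.8, 14.8 and 22.5 in WT and 13.1, 14.0 and 12.0 in Mtg16 KO, also without overlap (-0.62, SE 0.20, adjusted p = 0.281). Oasl2 was at 34.7, 13.9 and 21.5 in WT and 15.9, 12.2 and 5.17 in Mtg16 KO, with WT replicate 2 below Mtg16 KO replicate 1 (-1.04, SE 0.42, adjusted p = 0.321). It was the most abundant of the family by the mean over all libraries, while in Mtg16 KO the mean of Oas1a was higher (13.0 against 11.1). Oas3 had a value of -1.40, and Oas2, too low to be tested, had 1.74, 0.54 and 1.43 TPM in WT and 0.73, 0.33 and 0.19 in Mtg16 KO. Oas1a and Oas1g share enough sequence that their separate levels are uncertain.

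Genes for the 5 sensors of foreign nucleic acid all overlapped between the groups. Eif2ak2, encoding the kinase PKR that halts translation on double-stranded RNA, was at 28.6, 19.5 and 24.0 TPM in WT and 23.8, 26.6 and 18.6 in Mtg16 KO. Eif2ak2 had a fold change of -0.06 with a 95% interval from -0.49 to 0.37. Zbp1, a sensor of Z-form nucleic acid that triggers cell death, was at 39.0, 17.2 and 20.4 in WT and 23.9, 17.2 and 6.16 in Mtg16 KO, highest in WT replicate 1 and lowest in Mtg16 KO replicate 3 (-0.75, SE 0.47, adjusted p = 0.472). The value of Zbp1 was -0.23 without Mtg16 KO replicate 3 and -1.13 without Mtg16 KO replicate 1. The helicase genes Ddx58, Ifih1 and Dhx58, whose products RIG-I, MDA5 and LGP2 detect viral RNA, had values of -0.34, -0.13 and -0.52.

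Among the effectors, Bst2 was singled out after its values were seen, because its adjusted p was the lowest of the members. BST2 (tetherin) holds budding virions at the cell surface. Its gene was at 15.7, 18.2 and 17.1 TPM in WT and 9.51, 8.97 and 8.65 in Mtg16 KO, with little spread within either group and no overlap. The means were 17.0 ± 1.27 and 9.04 ± 0.43 (SD, n = 3 each), and Bst2 had a fold change of -0.84 (SE 0.13, adjusted p = 0.104), just past the threshold of 0.1. The highest Bst2 level was in WT replicate 2, and the gene lies on chromosome 8, the chromosome of Cbfa2t3, 51.1 Mb away, as does Psmb10 at 16.7 Mb. Lgals3bp, a secreted glycoprotein gene and the most abundant effector, was at 214, 208 and 240.1 in WT and 189, 197 and 158 in Mtg16 KO, without overlap (-0.29, SE 0.13, adjusted p = 0.368). Rtp4, a receptor transporter gene, was at 8.95, 2.96 and 4.64 in WT and 3.16, 2.48 and 1.64 in Mtg16 KO, where WT replicate 2 lay below Mtg16 KO replicate 1 (-0.85, SE 0.35, adjusted p = 0.322). Mx2, a dynamin-like GTPase gene, was at 2.10, 1.00 and 2.17 in WT and 2.00, 1.35 and 0.60 in Mtg16 KO, with overlap (-0.27). Ifi27, Ifi35, Trim30a and Xaf1 had values of -0.74, -0.50, -0.82 and -0.32. Rsad2 (viperin) was at 1.78, 0.82 and 1.04 in WT and 1.48, 0.67 and 0.14 in Mtg16 KO, and Ifi44 stayed under 1 TPM in every library.

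The genes of PARP9, PARP14 and the ubiquitin ligase DTX3L, which modify proteins with ADP-ribose and ubiquitin, lie within 141 kb on chromosome 16. Parp14 was at 68.5, 27.3 and 37.0 TPM in WT and 35.2, 31.4 and 9.36 in Mtg16 KO, highest in WT replicate 1 and lowest in Mtg16 KO replicate 3 (-0.87, SE 0.50, adjusted p = 0.437). The value of Parp14 was -0.30 without Mtg16 KO replicate 3 and -1.20 without Mtg16 KO replicate 1. Dtx3l, the most abundant, was at 52.0, 34.1 and 41.3 in WT and 44.6, 46.7 and 26.4 in Mtg16 KO, with overlap (-0.13), and Parp9 had a value of -0.37. Parp9 and Dtx3l are transcribed in opposite directions from adjoining starts, so reads at their shared end may be assigned to either.

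A single library at each end carried part of the type I difference. WT replicate 1 was the highest library for 22 of 26 type I antiviral genes, beside 31.4% of all tested genes. Mtg16 KO replicate 3 was the lowest for 23 of 26, beside 31.5% of all tested genes. The median deviation of the class from the gene means was 0.78, -0.11 and 0.22 log2 units in WT replicates 1 to 3 and 0.08, -0.25 and -0.74 in Mtg16 KO replicates 1 to 3, so the groups overlapped. Without WT replicate 1 the median log2 fold change of the class was -0.38, and without Mtg16 KO replicate 3 it was -0.35. In each of these cases 21 of 26 genes had a fold change below 0.

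Enterocyte and lymphocyte markers had a similar order of libraries. All 12 enterocyte markers were in the table, led by Apoa1, and their summed TPM was 36578, 12434 and 15445 in WT and 12695, 7090.5 and 6377 in Mtg16 KO. Of 12 markers of T and intraepithelial lymphocytes, 11 were in the table and tested, led by Gzma, with a sum of 594, 175 and 335 in WT and 268, 214 and 91.1 in Mtg16 KO. None of these markers was at 0 in any library, and both lists were highest in WT replicate 1 and lowest, by median deviation, in Mtg16 KO replicate 3. The 10 Paneth cell markers, led by Defa24, summed to 10636, 25465 and 13984 in WT and 40054, 30848 and 30589 in Mtg16 KO, and the 5 stem cell markers, led by Olfm4, to 768, 1207 and 1338 and 1443, 1878 and 1649.9. The 8 enteroendocrine markers, led by Gip, summed to 449, 374 and 367 in WT and 524, 498 and 581 in Mtg16 KO. The part of the cell composition in the antiviral gene levels was not tested, and in bulk crypts fewer cells of a type and less RNA per cell cannot be told apart.

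**Figure D2:**
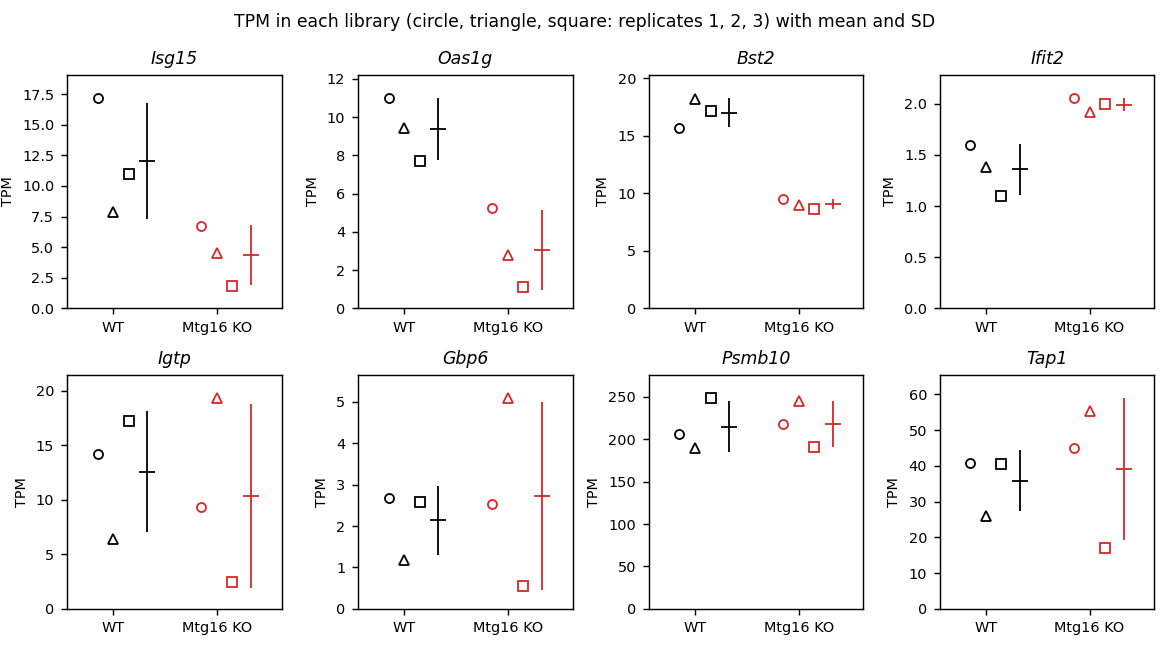
TPM in each library is shown for 8 members picked after their values were seen to show each pattern, with WT in black, Mtg16 KO in red, symbols for replicates 1 to 3, and bars for the mean and SD (n = 3). Isg15, Oas1g and Bst2 do not overlap between the groups, Ifit2 is higher in Mtg16 KO, and in Igtp, Gbp6 and Tap1 the Mtg16 KO libraries lie both above and below the WT libraries.

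The listed gamma-induced GTPases had another order of libraries. The further gamma induced genes given below did not share it. By median deviation they were highest in WT replicate 1 (0.42) and lowest in Mtg16 KO replicate 3 (-0.69). The immunity-related GTPases (Ifi47, Igtp, Irgm1, Irgm2 and Iigp1) act on vacuoles that hold intracellular pathogens. Irgm1, the most abundant, was at 30.9, 30.4 and 47.2 TPM in WT and 36.3, 57.3 and 30.6 in Mtg16 KO, with a fold change of 0.17 (SE 0.26, adjusted p = 0.776). Ifi47 was at 28.6, 14.5 and 30.4 in WT and 28.5, 38.3 and 20.6 in Mtg16 KO (0.27, SE 0.31, adjusted p = 0.699). Igtp (IRGM3) was at 14.2, 6.38 and 17.2 in WT and 9.29, 19.3 and 2.5 in Mtg16 KO, so that the highest and the lowest library were both Mtg16 KO. Igtp had a fold change of -0.49 with a wide 95% interval, from -1.90 to 0.91. Irgm2, its neighbour on chromosome 11, had a value of -0.14, and Iigp1, too low to be tested, reached 2.88 TPM in Mtg16 KO replicate 2 and at most 0.51 in WT.

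The guanylate-binding proteins coat pathogens and their vacuoles and help to start inflammasome signaling. Gbp2 was at 2.59, 1.86 and 2.05 TPM in WT and 3.53, 4.43 and 0.47 in Mtg16 KO. Gbp6 was at 2.68, 1.18 and 2.57 in WT and 2.53, 5.09 and 0.55 in Mtg16 KO, and Gbp7 at 2.60, 1.08 and 2.27 and 2.29, 3.52 and 0.82. Each had its highest value in Mtg16 KO replicate 2 and its lowest in Mtg16 KO replicate 3. The fold changes were 0.07 for Gbp2, 0.07 for Gbp6 and 0.05 for Gbp7, all with an adjusted p of at least 0.956, and the widest interval, that of Gbp6, ran from -1.03 to 1.18, so these data do not show that the genotypes are alike. Gbp3, untested, was at 1.01, 1.10 and 0.99 in WT and 0.88, 1.35 and 0.41 in Mtg16 KO. Gbp2, Gbp3 and Gbp7 lie within 108 kb on chromosome 3, and reads of these similar genes may have been split.

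Over the class, Mtg16 KO replicate 2 was the highest library for 7 of 7 tested GTPases, beside 20.3% of all tested genes, and Mtg16 KO replicate 3 the lowest for 5. The median deviations were 0.23, -0.53 and 0.23 in WT and 0.16, 0.75 and -1.02 in Mtg16 KO. The sign of the class median rested on single libraries. It was -0.29 without Mtg16 KO replicate 2, -0.17 without WT replicate 2, -0.02 without Mtg16 KO replicate 1 and 0.48 without Mtg16 KO replicate 3, and with a pseudocount of 0.1 it was -0.03.

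All 5 antigen processing genes overlapped between the groups. Interferon exchanges the catalytic subunits of the proteasome for PSMB8, PSMB9 and PSMB10, and the transporter of TAP1 and TAP2 carries the resulting peptides to MHC class I. Psmb10, the most abundant, was at 206, 190.1 and 248 TPM in WT and 218, 245 and 190.5 in Mtg16 KO. The means were 215 ± 30.2 and 218 ± 27.2 (SD, n = 3 each), with a fold change of 0.02 and a 95% interval from -0.33 to 0.38. Psmb9 was at 72.2, 75.4 and 102 in WT and 81.2, 114 and 77.9 in Mtg16 KO (0.13, SE 0.19, adjusted p = 0.776), and Psmb8 had a value of 0.07. Tap1 was at 40.8, 25.9 and 40.6 in WT and 44.9, 55.4 and 17.1 in Mtg16 KO, and Tap2 at 38.6, 20.4 and 27.7 and 29.6, 29.2 and 11.9. Both overlapped and were lowest in Mtg16 KO replicate 3, with fold changes of 0.001 and -0.34. Psmb8, Psmb9, Tap1 and Tap2 lie within 34.3 kb of the MHC on chromosome 17. The class median was -0.03 without Mtg16 KO replicate 1, -0.15 without Mtg16 KO replicate 2, -0.13 without WT replicate 2 and 0.23 without Mtg16 KO replicate 3.

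The listed classes were then set against each other within libraries, as a description, without the further gamma induced and class I genes. The median deviation of the type I antiviral genes minus that of the antigen processing genes was 0.69, 0.16 and 0.01 log2 units in WT replicates 1 to 3 and -0.15, -0.66 and -0.15 in Mtg16 KO replicates 1 to 3, and here the groups did not overlap. Against the GTPases the same difference was 0.55, 0.42 and -0.02 in WT and -0.08, -1.0 and 0.28 in Mtg16 KO. Mtg16 KO replicate 3 lay above WT replicate 3 in this measure, so the groups overlapped.

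**Figure D3:**
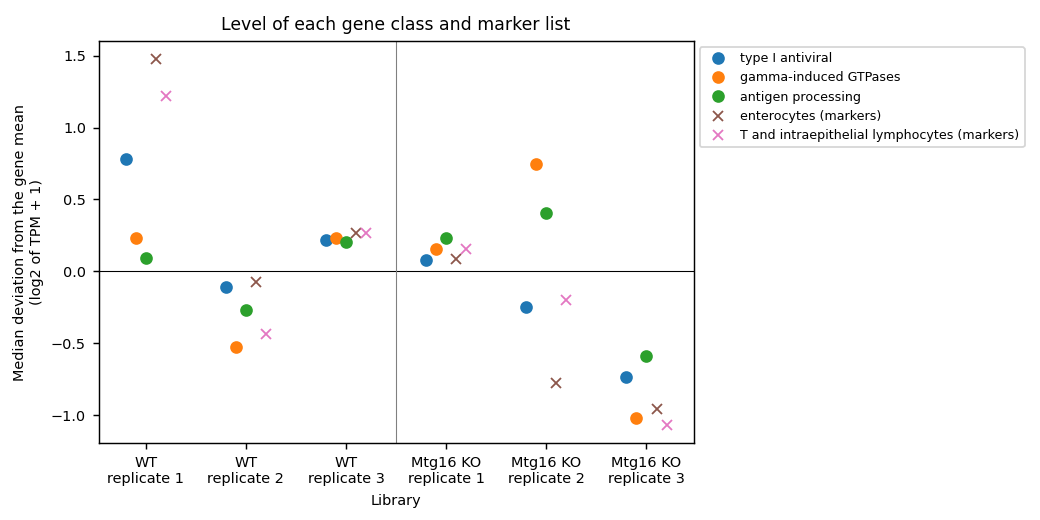
For each library, the median deviation of a class's genes from the mean of each gene is plotted in log2 units of TPM + 1, with circles for gene classes and crosses for marker lists. The type I antiviral genes and both marker lists are highest in WT replicate 1 and lowest in Mtg16 KO replicate 3, while the GTPases are highest in Mtg16 KO replicate 2.

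Cxcl10, a chemokine gene that responds to both kinds of interferon and attracts T cells, had the lowest fold change of the members. It was at 8.93, 4.78 and 1.00 TPM in WT and 1.04, 0.60 and 0.17 in Mtg16 KO, where WT replicate 3 lay below Mtg16 KO replicate 1. Cxcl10 had a log2 fold change of -1.64 (SE 0.54, adjusted p = 0.282). With a pseudocount of 0.1 it was -2.60, and with 1 library left out it lay between -2.28 and -1.12.

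The interferon genes listed here were nearly undetected, at a depth that is unknown. The ligand list also holds interleukin genes. Of 12 listed ligand genes, the type I genes Ifnb1, Ifnk, Ifne, Ifna1, Ifna2 and Ifna4, the lambda genes Ifnl2 and Ifnl3, and Il27 were listed at 0 in all 6 libraries, and Ifng was at 0.38, 0 and 0 TPM in WT and 0.13, 0.73 and 0 in Mtg16 KO. Il18, an epithelial cytokine that raises interferon gamma in lymphocytes, was at 119, 43.8 and 50.2 in WT and 33.1, 19.7 and 29.8 in Mtg16 KO, without overlap. Il18 had a fold change of -1.22 (SE 0.37, adjusted p = 0.267). Il15, which sustains intraepithelial lymphocytes, was at 13.4, 5.06 and 9.60 in WT and 9.79, 7.89 and 6.56 in Mtg16 KO, with overlap (-0.12).

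All 9 receptor and kinase genes were tested, 0 were called, and all had a fold change below 0 (median -0.26, and between -0.35 and -0.10 with 1 library left out). Without WT replicate 1, and also without Mtg16 KO replicate 3, only 6 of 9 were below 0. Ifnlr1, the receptor chain specific to lambda interferons, which act mainly on epithelia, was at 18.8, 11.7 and 9.81 TPM in WT and 9.68, 7.77 and 4.47 in Mtg16 KO. The groups did not overlap, though only narrowly, and Ifnlr1 had a fold change of -0.80 (SE 0.30, adjusted p = 0.309). Ifngr2, a chain of the gamma receptor and the most abundant of the list, was at 195, 132 and 147 in WT and 176, 146 and 141 in Mtg16 KO (-0.02). Ifnar1, a chain of the type I receptor, was at 20.1, 14.9 and 15.6 in WT and 18.6, 17.3 and 14.3 in Mtg16 KO (-0.006). Both overlapped between the genotypes, and their sign turned under median-ratio rescaling and quantile normalization.

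Of 14 further STAT, IRF and feedback genes, 0 were called and 9 had a fold change above 0 (median 0.11, and between 0.03 and 0.15 with 1 library left out). Socs3, a feedback inhibitor of cytokine receptors, was at 22.3, 16.4 and 21.3 TPM in WT and 41.0, 22.8 and 22.0 in Mtg16 KO, highest in Mtg16 KO replicate 1 (0.45, SE 0.25, adjusted p = 0.423). Ptpn6, a phosphatase gene typical of blood cells and also transcribed in epithelia, was at 38.4, 26.6 and 29.9 in WT and 24.6, 18.1 and 17.0 in Mtg16 KO, without overlap (-0.64, SE 0.19, adjusted p = 0.263).

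Of 11 sensor adaptor and kinase genes, 0 were called and 10 were below 0 (median -0.11, and between -0.19 and -0.02 with 1 library left out). The count below 0 was 7 without WT replicate 1 and 7 without Mtg16 KO replicate 3. Trim25, a ubiquitin ligase gene of the RIG-I pathway, was at 53.7, 41.0 and 50.3 TPM in WT and 53.6, 48.6 and 36.2 in Mtg16 KO (-0.08, above 0 after quantile normalization). Ticam1, encoding the TLR3 adaptor TRIF, was at 60.8, 41.2 and 44.5 in WT and 42.0, 33.8 and 28.3 in Mtg16 KO, with WT replicate 2 just below Mtg16 KO replicate 1 (-0.48, SE 0.20, adjusted p = 0.322). Rnf135, another ligase gene of that pathway, was at 5.99, 4.83 and 5.74 in WT and 6.49, 7.02 and 6.07 in Mtg16 KO, where each Mtg16 KO library lay above each WT library by a small margin (0.21).

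Other type I induced genes were also mostly on the lower side: of 40 tested, 0 were called and 35 were below 0 (median -0.33, and between -0.53 and -0.15 with 1 library left out). The share below 0 was 87.5%, beside 53.6% of all tested genes. Only 5 (12.5%) were lower at an unadjusted p under 0.05 in limma, beside 8.05% of all tested genes. Lower without overlap were 5 (12.5%), beside 11.1%. Apol9a, an apolipoprotein L gene, was at 41.7, 11.2 and 19.5 TPM in WT and 7.67, 3.56 and 1.22 in Mtg16 KO, without overlap. Apol9a had a fold change of -2.31 (SE 0.56, adjusted p = 0.238), and its paralog Apol9b may share its reads. Ifitm2, which blocks viral entry in endosomes and was the most abundant, was at 178, 294 and 269 in WT and 260.2, 288 and 371 in Mtg16 KO (0.33, SE 0.22, adjusted p = 0.505), lowest in WT replicate 1.

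Of 18 other gamma induced genes, 12 were tested, 0 were called and 8 were below 0 (median -0.18, and between -0.48 and 0.06 with 1 library left out). Lgals9, a galectin gene and the most abundant, was at 558, 555 and 692 TPM in WT and 675, 674 and 554 in Mtg16 KO (0.08). Ido1, encoding the tryptophan-degrading enzyme, was at 23.8, 7.18 and 9.89 in WT and 12.9, 9.53 and 1.84 in Mtg16 KO, highest in WT replicate 1 and lowest in Mtg16 KO replicate 3 like most antiviral genes (-0.80, SE 0.62, adjusted p = 0.552). The value of Ido1 was -0.10 without Mtg16 KO replicate 3 and -1.25 without Mtg16 KO replicate 1. Tgtp2, another immunity-related GTPase gene, was at 2.64, 1.62 and 2.25 in WT and 2.47, 7.63 and 0.96 in Mtg16 KO, with the peak in Mtg16 KO replicate 2 also seen for Igtp (0.31).

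Other genes of the class I pathway lay mostly on the lower side. Of 14 such genes, 0 were called and 10 were below 0 (median -0.39, and between -0.53 and -0.15 with 1 library left out). B2m, the shared light chain, was at 2026, 1015 and 1231 TPM in WT and 1193, 1064 and 841 in Mtg16 KO, highest in WT replicate 1 and lowest in Mtg16 KO replicate 3 (-0.42, SE 0.27, adjusted p = 0.493). The value of B2m was -0.13 without WT replicate 1 and -0.63 without WT replicate 2. H2-Q1, a nonclassical heavy chain gene whose reads may be shared with other H2 genes, was at 149, 49.4 and 63.6 in WT and 50.9, 32.0 and 28.4 in Mtg16 KO (-1.09, SE 0.40, adjusted p = 0.298). Erap1, encoding the peptidase that trims peptides in the endoplasmic reticulum, was at 68.0, 53.5 and 68.2 in WT and 68.5, 80.4 and 66.1 in Mtg16 KO (0.18).

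The promoters were compared for the ISRE and the GAS. RefSeq promoters of 300 bases (250 before the start and 50 after it, GRCm38.p6) matched 36 of the 48 genes. The ISRE core, searched on both strands as GAAA, any 2 bases and GAAA again, was in the promoter of 21 of them, beside 1079 of 27025 genes (3.99%). By class it was in 13 of 20 type I antiviral genes, 6 of 7 GTPases and 0 of 4 antigen processing genes. The GAS motif, searched as TTCNNNGAA, which reads the same on both strands, was in 5, 3 and 1 genes of these classes, beside 9.55% of all genes. Ifit2, the type I antiviral gene above 0, had a GAS match and no ISRE core in this window. The same held for Ifi35, which lay below 0. Oas1a, Eif2ak2 and Bst2, also below 0, had both motifs. A match is a string of letters and not a shown binding site.

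The 150 bases before the start are given 5′ to 3′ on the strand of the gene for 6 members with a match to the ISRE core, 4 of the 9 that did not overlap between the groups and, for the IFIT genes and the GTPases, Ifit1 and Irgm2. Matches on either strand are in capitals, and overlapping matches run together. Of the other 5 members without overlap, Ifit3 and Oas3 also have matches, Lgals3bp and Ifit2 have none, and no promoter of Ifi27 was used here. Isg15 is from chr4:156200819-156200968, Oas1a from chr5:120907526-120907675, Oas1g from chr5:120887614-120887763 and Bst2 from chr8:71537473-71537622, all on the minus strand. Ifit1 is from chr19:34640739-34640888 and Irgm2 from chr11:58214827-58214976, both on the plus strand.
Isg15: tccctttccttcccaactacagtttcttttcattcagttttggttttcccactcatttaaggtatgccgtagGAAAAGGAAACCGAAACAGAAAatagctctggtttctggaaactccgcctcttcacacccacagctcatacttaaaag
Oas1a: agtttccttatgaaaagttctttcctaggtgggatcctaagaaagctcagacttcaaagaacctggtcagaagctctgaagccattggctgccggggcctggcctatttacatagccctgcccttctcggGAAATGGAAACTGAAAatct
Oas1g: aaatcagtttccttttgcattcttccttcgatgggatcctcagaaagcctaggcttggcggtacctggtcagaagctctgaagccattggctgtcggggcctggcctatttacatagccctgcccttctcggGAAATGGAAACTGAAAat
Bst2: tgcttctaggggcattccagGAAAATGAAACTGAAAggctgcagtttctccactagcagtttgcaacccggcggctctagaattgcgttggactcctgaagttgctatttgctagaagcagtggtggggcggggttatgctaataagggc
Ifit1: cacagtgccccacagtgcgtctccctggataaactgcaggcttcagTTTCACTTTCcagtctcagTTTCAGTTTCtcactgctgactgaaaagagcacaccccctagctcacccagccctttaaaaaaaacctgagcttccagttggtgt
Irgm2: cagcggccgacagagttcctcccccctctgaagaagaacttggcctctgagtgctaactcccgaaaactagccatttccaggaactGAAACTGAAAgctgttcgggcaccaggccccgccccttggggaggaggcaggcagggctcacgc
Isg15 carries 3 overlapping matches, and Oas1a, Oas1g and Bst2 carry 2 overlapping matches each. Ifit1 has 2 separate matches in the reverse orientation and Irgm2 has 1. The Oas1a and Oas1g stretches hold the same bases at 120 of 148 positions when shifted by 2 bases, and both end in the same pair of matches next to the start. The ISRE core was thus present both in genes that lay lower in every Mtg16 KO library and in Irgm2, whose groups overlapped.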

How the data were processed

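RNA from crypts isolated in 2 mM EDTA for 30 min (200 ng input, ribosomal RNA depleted, 14 PCR cycles) was sequenced from 3 WT and 3 Mtg16 KO replicates. The authors deposited TPM values from RSEM, 1 column per library, rounded to 2 decimals. The submitters' processing notes name cutadapt 1.9.1, STAR 2.5.2a, RSEM 1.3.0, DESeq2 1.12.3 and build mm10, and strand handling is not given in the sources used here. TPM keeps no read number, so the depth is unknown and no counting interval is given.

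Values were transformed as log2(TPM + 1), and the 12268 genes whose TPM averaged 1 or more were tested with limma 3.58.1 in R 4.3.3 (lmFit, eBayes with intensity trend, two-sided, no covariates), with Benjamini-Hochberg adjustment over all tested genes and a threshold of 0.1. The calculation was tested on simulated data whose changes were larger than the fold change of any member. That test does not show how often changes of the size seen in the members would be called. The labels call the samples biological triplicates and do not say whether the animals were handled apart, so p-values measure the spread between these samples. An exact permutation test of 3 against 3 cannot go below 0.1 and was not used. Positions and promoters are from RefSeq GRCm38.p6, in which all 48 symbols were found.

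The members and lists were chosen with earlier results of these data known, so no p is given for a list. Every member is named. In each role the most abundant tested gene and those with the highest and lowest fold change are given in every library, as in each list of other pathway genes, except 1 gene that is not reported here. Alternatives were quantile normalization, median-ratio rescaling, a pseudocount of 0.1, a filter at 5 TPM or none, robust moderation, moderation without the trend, a threshold of 0.05, a replicate block and each replicate left out.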

Additional observations from a re-analysis of the deposited data

How the results depend on the processing

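Of the 43 tested members, 27 kept the direction of their fold change in all 15 alternatives that gave a value, and of the 19 pathway genes picked by rule 14 did. Moderation, threshold, filter and block leave the fold change of a gene as it is. Only scaling, the pseudocount and leaving out a replicate could turn a direction. The count of genes called over all tested genes, 4 (2 higher and 2 lower), was 15 with a mean TPM of at least 5, 20 with robust moderation, 1 (higher) after quantile normalization, 0 after median-ratio rescaling, 0 with no filter, 0 with no intensity trend, 0 at an adjusted p under 0.05, and between 0 and 20 with 1 replicate left out. Members with a fold change above 0 numbered 6 of 31 instead of 10 of 43 with a mean TPM of at least 5, which tests fewer genes, and between 2 and 17 with 1 replicate left out. The median fold change of the type I antiviral genes stayed between -0.87 and -0.35. In every alternative it was below 0. Apart from the smaller gene list, the cause of these changes was not tested.

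Replicate numbers are shared by the groups, so they were also used as a block. Across genes, the departures of libraries with one number from the mean of their genotype correlated at 0.43 for replicate 1, 0.08 for replicate 2 and 0.24 for replicate 3. Not every pair exceeded 0.1, so the numbers were not taken to pair the samples. Each sample correlated best with its own number except WT replicate 2, which correlated best with Mtg16 KO replicate 3 (0.20), a hint from the data and not the design. With the replicate block, 1201 genes were called (9.79%), of which 816 were lower, and 12 of 43 members (27.9%), all lower: Stat2, Irf7, Isg15, Usp18, Ifit3, Oas1g, Oas3, Oasl2, Bst2, Ifi27, Ifi35 and Cxcl10. Of the 19 pathway genes picked by rule, 6 were called only with the block.

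Some fold changes changed sign, and the cause was not tested. With a pseudocount of 0.1 the values were -0.0914 for Gbp2, -0.0329 for Gbp6 and -0.00327 for Tap1. Median-ratio rescaling gave 0.0138 for Ifnar1 and 0.000666 for Ifngr2, and quantile normalization gave 0.0265 for Ifnar1, 0.11 for Ifngr2 and 0.0069 for Trim25. With each replicate left out, the fold changes that crossed 0 ranged from -0.74 to 0.23 for Ifit1bl1, -0.28 to 0.0437 for Ifih1, -0.20 to 0.0799 for Eif2ak2, -0.28 to 0.12 for Dtx3l, -0.058 to 0.48 for Ifi47, -1.08 to 0.19 for Igtp, -0.0856 to 0.37 for Irgm1, -0.67 to 0.58 for Irgm2, -0.29 to 0.65 for Gbp2, -0.39 to 0.60 for Gbp6, -0.25 to 0.41 for Gbp7, -0.15 to 0.37 for Psmb8, -0.046 to 0.28 for Psmb9, -0.0678 to 0.13 for Psmb10, -0.32 to 0.50 for Tap1, -0.56 to 0.0696 for Tap2, -0.46 to 0.16 for Il15, -0.0847 to 0.12 for Ifnar1, -0.14 to 0.14 for Ifngr2, -0.19 to 0.0857 for Trim25 and -0.27 to 0.80 for Tgtp2. The unknown depth limits the genes with low TPM most.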

Other observations

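Markers of B and plasma cells and of myeloid cells had no common order of libraries. Jchain, the joining chain of secreted antibodies, was at 7.56, 14.8 and 5.84 TPM in WT and 35.5, 17.5 and 16.5 in Mtg16 KO, without overlap. The 7 B and plasma cell markers summed to 37.4, 59.8 and 21.3 in WT and 84.6, 35.6 and 33.0 in Mtg16 KO, with overlap. Jchain was the most abundant of them by the mean over all libraries, while in WT the mean of Cd79b was higher (10.7 against 9.38). Tyrobp, a signaling adaptor of myeloid and natural killer cells, was at 20.4, 9.03 and 9.43 in WT and 7.47, 1.26 and 8.23 in Mtg16 KO, without overlap. Siglech, a receptor gene of plasmacytoid dendritic cells, which are potent makers of type I interferon, was at 1.33, 0.77 and 0.75 in WT and 0.07, 0 and 0.29 in Mtg16 KO, also without overlap. These genes were picked after their values were seen, and at this level the unknown depth does not show whether Siglech differs. The 10 macrophage and dendritic cell markers summed to 51.0, 50.5 and 37.6 in WT and 38.7, 32.6 and 41.6 in Mtg16 KO. Itgam led them by the mean over all libraries, while in WT Tyrobp (12.9) and Lyz2 (9.32) had higher means than Itgam (9.1). Apart from Tyrobp and Siglech these markers overlapped between the groups, and Itgam, C1qb and Adgre1 had the higher mean in Mtg16 KO.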
